A study of Mus musculus with 11 samples.

Results

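Small nucleolar RNAs (snoRNAs) and small Cajal body RNAs (scaRNAs) were taken as all genes of the count files whose mouse symbol begins Snora, Snord or Scarna in the GRCm38 annotation. The rule found 147 genes among 38561, of which 41 are box H/ACA snoRNAs (Snora), 97 are box C/D snoRNAs (Snord) and 9 are scaRNAs (Scarna). The annotation lists 150 genes under the rule, and the other 3 were not analysed here. The group was chosen by its measured levels in these libraries, which are lower in Wnt9bKO and DKO than in wt and Rspo2KO, so values for that difference are a description. Calls for it use the threshold on adjusted p only to sort members, and no p-value is read as evidence for it.

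The 11 libraries were made from total RNA of explanted facial tissue of E10.5 mouse embryos, which took in the nasal processes and both the mandibular and the maxillary part of the branchial arch. Wild-type embryos (wt) gave 2 libraries, and embryos homozygous mutant for the Rspo2 gene (Rspo2KO), for the Wnt9b gene (Wnt9bKO) or for both genes (DKO) gave 3 libraries each. The study's methods state 3 samples for each genotype, while 2 libraries carry the wt label. All are labelled with a mixed strain, and no treatment is given. WNT9b is a WNT ligand of the facial ectoderm and RSPO2 is an R-spondin, a secreted protein that potentiates WNT/β-catenin signaling, and the study compared the single and the double mutants to find how the pair act together. How many embryos made up a library is not given in the sources used here, so p-values measure only the spread between these libraries.

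Box C/D snoRNAs guide the methylation of the ribose in ribosomal RNA by fibrillarin, and box H/ACA snoRNAs guide the conversion of uridine to pseudouridine by dyskerin. ScaRNAs carry the same boxes but collect in Cajal bodies, where they guide the modification of the small nuclear RNAs (snRNAs) of the spliceosome. Most of these RNAs lie in introns of other genes, named host genes, and are freed by debranching and trimming of the spliced intron, while a few have promoters of their own. They carry no poly(A) tail, and fragments of so short an RNA can be lost when a library is prepared.

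The sequences below are those of members on which the results turn, read from the GENCODE M21 transcripts of GRCm38 and written 5′ to 3′ as DNA. Capitals mark the box motifs found by exact search on the transcript strand, namely TGATGA (C box), CTGA within the last 14 bases (D box) and ACA placed 3 bases before the 3′ end. Scarna6 (chr1:87784556-87784820, plus strand) and Snora78 (chr17:24719676-24719803, minus strand) were among the members with the largest difference between the libraries. Snora57 (chr19:8888538-8888685, minus strand) and Snord118 (chr11:69073427-69073561, plus strand) have no annotated host gene.
Scarna6: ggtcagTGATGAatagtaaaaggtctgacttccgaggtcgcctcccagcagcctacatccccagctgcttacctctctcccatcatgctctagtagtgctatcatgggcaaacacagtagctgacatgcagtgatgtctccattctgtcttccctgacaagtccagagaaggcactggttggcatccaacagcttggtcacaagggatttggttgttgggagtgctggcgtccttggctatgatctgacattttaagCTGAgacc
Snora78: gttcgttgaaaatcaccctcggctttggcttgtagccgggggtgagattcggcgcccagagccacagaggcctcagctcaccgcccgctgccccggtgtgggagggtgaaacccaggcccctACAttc
Snora57: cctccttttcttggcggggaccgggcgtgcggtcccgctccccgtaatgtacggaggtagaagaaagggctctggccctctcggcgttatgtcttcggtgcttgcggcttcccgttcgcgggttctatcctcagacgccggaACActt
Snord118: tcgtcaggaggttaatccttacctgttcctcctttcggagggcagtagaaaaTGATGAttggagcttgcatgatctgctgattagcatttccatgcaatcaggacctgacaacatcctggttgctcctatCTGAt

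The next group shows members that share a host gene but differ in level or in change, with the one member called higher. Snord49a (chr11:62603450-62603521, plus strand) and Snord49b (chr11:62603079-62603150, plus strand) lie in the noncoding gene 2410006H16Rik. They are each 72 bases long and share a run of 13 bases, aggaagtgccgtc. Snord32a (chr7:45127382-45127464, minus strand) and Snord35a (chr7:45126346-45126435, minus strand) lie in Rpl13a, a ribosomal protein gene. Snord93 (chr5:23852210-23852280, plus strand) lies in the noncoding gene 2700038G22Rik.
Snord49a: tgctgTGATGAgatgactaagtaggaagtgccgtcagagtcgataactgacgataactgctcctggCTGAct
Snord49b: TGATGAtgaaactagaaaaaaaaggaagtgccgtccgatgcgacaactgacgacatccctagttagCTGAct
Snord32a: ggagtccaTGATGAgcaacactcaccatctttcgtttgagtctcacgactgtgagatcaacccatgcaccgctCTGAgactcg
Snord35a: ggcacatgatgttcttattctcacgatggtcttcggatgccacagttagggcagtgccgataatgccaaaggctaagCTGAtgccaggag
Snord93: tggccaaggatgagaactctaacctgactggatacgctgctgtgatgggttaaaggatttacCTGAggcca

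The motifs set H/ACA apart from C/D members for the most part, while scaRNAs held motifs of both. TGATGA was present in 73 of 97 C/D members, in 0 of 41 H/ACA members and in 6 of 9 scaRNAs. CTGA lay within the last 14 bases of 91 C/D members, 3 H/ACA members and 5 scaRNAs. ACA lay 3 bases before the 3′ end in 34 H/ACA members, 0 C/D members and 2 scaRNAs. These letters can also be absent from a working box, since a box may differ from them by a base.

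Levels are given in CPM, the count relative to a library's total after TMM scaling. Total counts were 11136166 to 18017344 per library and TMM factors 0.915 to 1.096. The floor was taken as 3 counts in a library, which is 0.268 CPM in the smallest one. The label checks limit what the genotype names can carry. Rspo2 lay at 14.8 and 16.0 CPM in wt and at 4.73 to 6.58 CPM in Rspo2KO, but it was 2.86 CPM in the library labelled Wnt9bKO 2 and 15.5 CPM in the library labelled DKO 3, which goes against both labels. Wnt9b was counted at 16.2 to 23.3 CPM in Wnt9bKO and DKO and at 10.8 to 16.7 CPM in wt and Rspo2KO. Whether those reads fall in a part of Wnt9b that the mutation removes is not given in the sources used here, so its count checks nothing. Xist, expressed from the inactive X chromosome, was at 679 CPM or more in each wt and DKO library and below 2 CPM in each Rspo2KO and Wnt9bKO library. Ddx3y, on the Y chromosome, was at 57.5 CPM or more in each Rspo2KO and Wnt9bKO library, at 4.43 CPM in DKO 3, at 1.07 CPM in wt 1 and below 0.2 CPM in the other wt and DKO libraries. Each of the 2 sets of libraries compared below thus holds 1 genotype with high and 1 with low Xist. All 11 markers of facial mesenchyme and ectoderm (Twist1, Prrx1, Msx1 and others) were at 1.39 CPM or more in every library.

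Of the 147 members, 89 had at least 1 count in some library and 58 had none in any. A low-count filter kept 71 for the test across genes, namely 22 H/ACA, 42 C/D and 7 scaRNA members, and 18 members with a few counts did not pass it. The filter keeps a gene with enough reads in as many libraries as the smallest genotype has, which is 2 (wt), whatever their labels. A member high in 1 set of libraries alone can pass, so counts over the 71 members do not speak for all 147. A mean of 1 CPM was reached by 44 members and a mean of 10 CPM by 9.

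ScaRNAs carried most of the reads. Their summed level was 1108 to 1536 CPM in the 5 wt and Rspo2KO libraries and 511 to 895 CPM in the 6 Wnt9bKO and DKO libraries, without overlap. H/ACA members summed to 165 to 218 CPM in wt and Rspo2KO and to 61.0 to 97.3 CPM in Wnt9bKO and DKO. C/D members summed to 85.0 to 109.6 CPM and 46.1 to 63.2 CPM, respectively. By genotype, the H/ACA sum was 193 and 212 CPM in the wt libraries, 188 ± 27.1 CPM (SD, n = 3) in Rspo2KO, 78.8 ± 18.2 CPM (SD, n = 3) in Wnt9bKO and 75.6 ± 8.67 CPM (SD, n = 3) in DKO. The C/D sum was 85.0 and 104 CPM in wt, and 97.6 ± 10.7, 52.5 ± 9.36 and 51.9 ± 3.44 CPM (SD, n = 3 each) in Rspo2KO, Wnt9bKO and DKO. The ratio of the mean sums, wt and Rspo2KO over Wnt9bKO and DKO, was 2.51 for H/ACA, 1.85 for C/D and 2.22 for scaRNA members. In such bulk samples, fewer cells that express an RNA and less RNA per cell cannot be told apart.

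**Figure D1:**
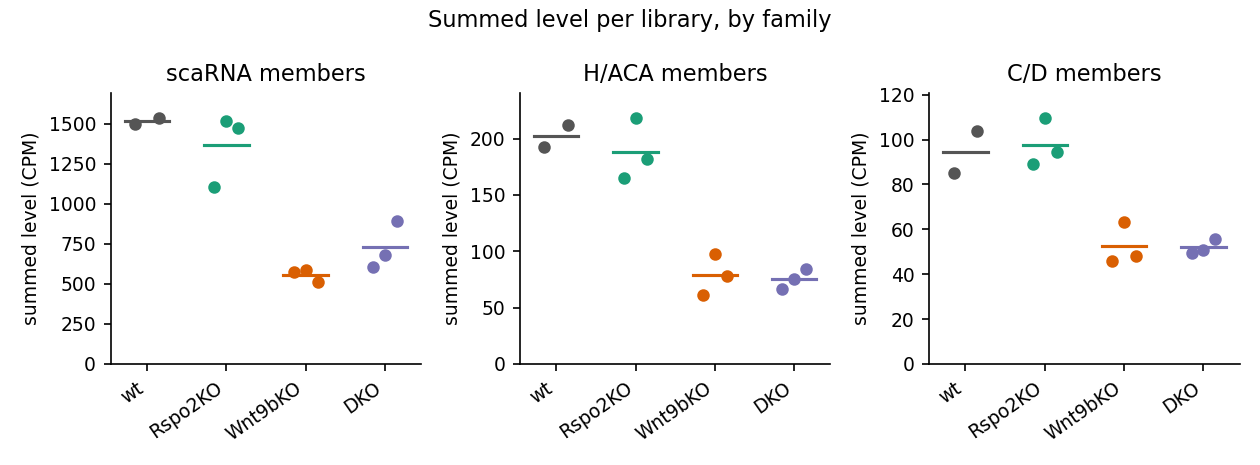
Summed level (CPM, y axis from 0) of scaRNA, H/ACA and C/D members in each library, by genotype on the x axis; points are libraries and horizontal lines are genotype means. In all 3 families the Wnt9bKO and DKO libraries lie below every wt and Rspo2KO library, and the lowest scaRNA point of wt and Rspo2KO is Rspo2KO 1 at 1108 CPM.

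Among the 71 tested members, 32 (45.1%) were lower in Wnt9bKO and DKO than in wt and Rspo2KO and 1 (1.41%) was higher, where a call needs an adjusted p below 0.05 and a change over 1.5-fold. Over all 17317 genes tested, 7.37% were called lower and 17.4% were called in either direction. The rule chose the members for this contrast, and nothing is read from the gap between these shares. The median log2 change was -0.52 over the H/ACA members tested, -0.57 over the C/D members and -1.52 over the scaRNAs, against 0.02 over all genes. Called lower were 8 of 22 H/ACA members, 18 of 42 C/D members and 6 of 7 scaRNAs. In 21 of the 71 members (29.6%) the 6 Wnt9bKO and DKO libraries all lay below the 5 wt and Rspo2KO libraries, and over all genes this held for 10.6%. Snora43 was the called member with the smallest change, at -0.64 on the log2 scale, and it fell short of 1.5-fold without Rspo2KO 2 (-0.56), Wnt9bKO 1 (-0.58) or Wnt9bKO 3 (-0.58). Snora47, at -0.55, and Snora68, at -0.54, lay just outside the call for missing 1.5-fold.

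Against wt alone, 24 members were called lower and 1 higher in Wnt9bKO, where 9.16% of all genes were called lower and 21.2% in either direction. In DKO against wt, 23 were called lower and 0 higher, where 6.77% of all genes were called lower and 16.7% in either direction. Against Rspo2KO, 20 members were called lower and 2 higher in Wnt9bKO, where 7.34% of all genes were called lower, 6.32% higher and 13.7% in either direction. In DKO against Rspo2KO, 21 were called lower and 0 higher, where 4.53% of all genes were called lower and 9.26% in either direction. These comparisons share libraries in pairs and are not independent. In Wnt9bKO against wt and in DKO against Rspo2KO, Xist and Ddx3y also separate the genotypes, so genotype and sex cannot be told apart. Without the libraries labelled Wnt9bKO 2 and DKO 3, 37 members were called over all genotypes, 30 in Wnt9bKO against wt and 24 in DKO against wt. Without wt 2, the counts against wt were 16 and 13. Of the members, 68 were tested without the libraries labelled Wnt9bKO 2 and DKO 3, and 71 without wt 2. The shares of all genes called in these fits are not given here, so nothing about the members is read from the moves. Scarna17 was the 1 tested scaRNA not called over all 11 libraries, yet all 7 tested scaRNAs were called lower in Wnt9bKO against wt, and 5 in DKO against wt.

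**Figure D2:**
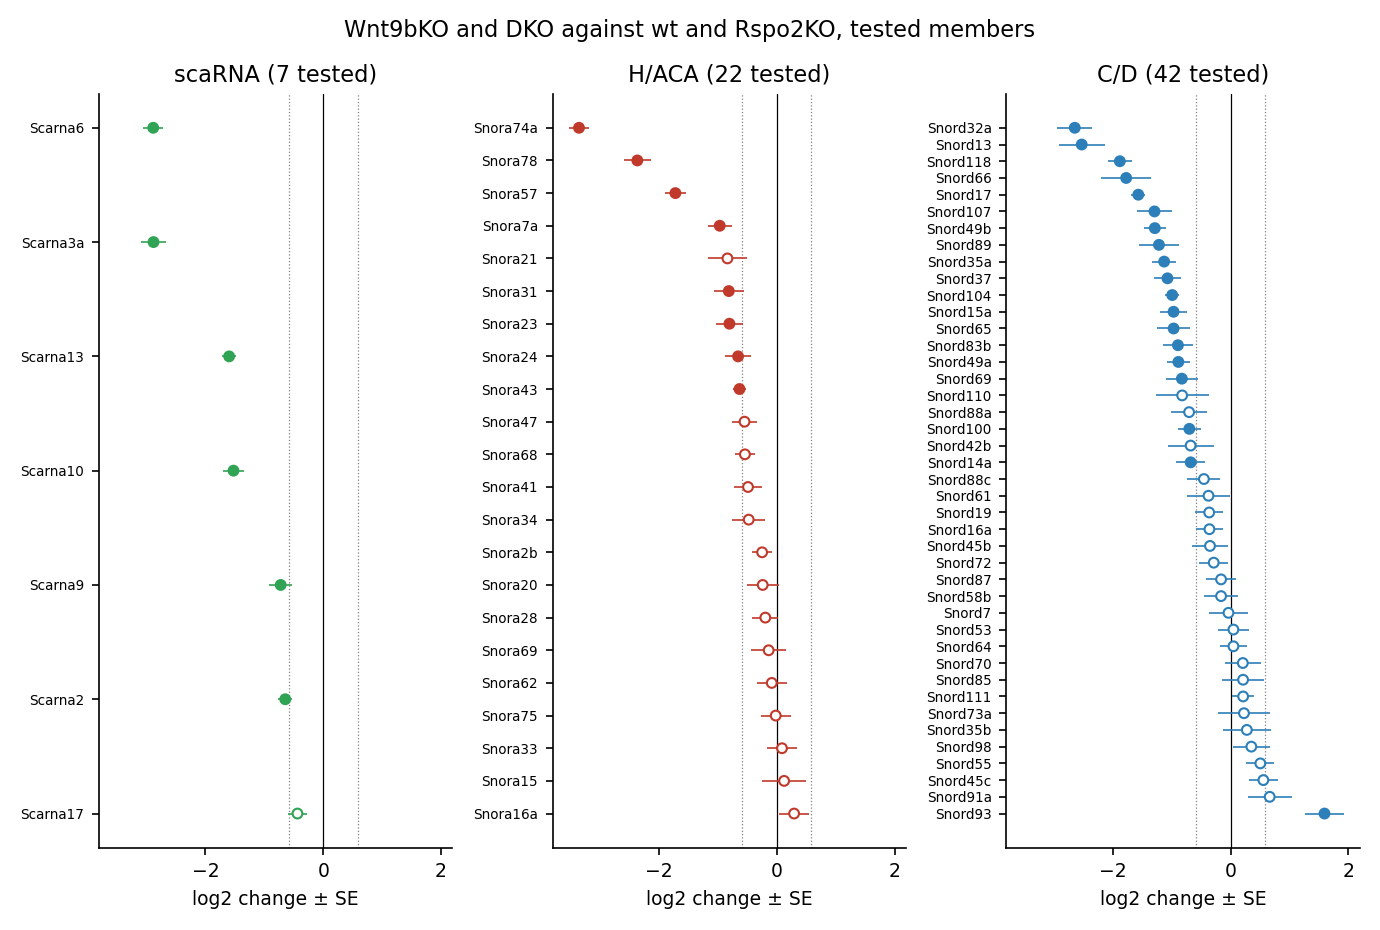
Log2 change of each tested member in Wnt9bKO and DKO against wt and Rspo2KO (x axis, fitted value ± SE), 1 panel per family and 1 row per member; filled points are called and dotted lines mark 1.5-fold. Of the 71 points, 56 lie below 0 and 15 above 0, and Snord93 at 1.59 is the 1 filled point on the right.

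The 3 most abundant members were scaRNAs, and together they held 77.5% to 85.2% of the summed level in each library. Per length they stood at 1203 CPM per kb (Scarna10), 984 (Scarna2) and 795 (Scarna13), averaged over genotypes, while the median tested member stood at 13.4 CPM per kb.

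Scarna2 guides methylation of U2 snRNA and is transcribed from its own promoter on chromosome 3. It was at 523 and 535 CPM in wt, at 371, 507 and 517 CPM in Rspo2KO, at 364, 279.6 and 249 CPM in Wnt9bKO and at 286, 367 and 363 CPM in DKO. The sets did not overlap, but the gap between Rspo2KO 1 and the highest DKO library was small. Its log2 change of -0.64 ± 0.12 (SE) was the smallest of the 6 scaRNAs called, and without Wnt9bKO 3 it was -0.56, under 1.5-fold.

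Scarna10, also named U85, carries both kinds of box and guides modifications of U5 snRNA. It was at 657 and 585 CPM in wt and at 425, 586 and 579 CPM in Rspo2KO. It was at 117, 199 and 149 CPM in Wnt9bKO and at 213, 187 and 371 CPM in DKO, with the library labelled DKO 3 standing highest. The log2 change was -1.52 ± 0.17, and -1.81 without the libraries labelled Wnt9bKO 2 and DKO 3. Exons of other genes cover 87.1% of its length, so its counts depend on how reads in the shared stretch were assigned.

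Scarna13, a guide with H/ACA boxes, was at 287 and 370.1 CPM in wt and at 269, 377 and 336 CPM in Rspo2KO. It was at 87.2, 101 and 102 CPM in Wnt9bKO and at 96.8, 119.8 and 148 CPM in DKO, a log2 change of -1.60 ± 0.12.

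Scarna6 and Scarna3a differed most among the scaRNAs. Scarna6 was at 23.7 to 34.5 CPM in the 5 wt and Rspo2KO libraries and at 2.07 to 5.82 CPM in the 6 others, 7.39-fold higher in the first set. Scarna3a was at 3.93 to 6.64 CPM and at 0.59 to 1.20 CPM, respectively, 7.37-fold higher. Scarna9 was called lower at -0.72 although its libraries overlapped, and Scarna17 lay at 2.77 to 4.53 CPM against 2.14 to 3.64 CPM, a log2 change of -0.44 ± 0.17, or -0.27 without wt 2. Scarna3b and Scarna8, with 49 reads each over all libraries, did not pass the filter.

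Of the H/ACA snoRNAs, Snora43, Snora74a, Snora57 and Snora78 passed a mean of 10 CPM. Snora74a, a long H/ACA snoRNA known as U19 that pairs with ribosomal RNA, showed the largest difference of the tested members. It was at 55.9 and 63.6 CPM in wt, at 50.2, 69.1 and 55.7 CPM in Rspo2KO, at 3.14, 6.85 and 5.63 CPM in Wnt9bKO and at 5.05, 5.23 and 8.85 CPM in DKO. Its log2 change was -3.36 ± 0.18, 10.3-fold, and its levels in the sets lay far apart. Exons of the annotated gene in which it lies, AC121821.1, which was not analysed here, and of other genes cover its whole length.

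Snora78, whose sequence is given above, was at 25.8 and 26.2 CPM in wt and at 20.1, 26.6 and 24.3 CPM in Rspo2KO. It was at 2.61, 4.47 and 6.89 CPM in Wnt9bKO and at 4.69, 2.68 and 7.52 CPM in DKO, a log2 change of -2.37 ± 0.23. Snora57 was at 19.8 to 31.7 CPM against 5.21 to 12.3 CPM, a log2 change of -1.72 ± 0.18. Snora43, the most abundant H/ACA member, was at 43.5 to 54.3 CPM against 28.3 to 43.3 CPM and changed by -0.64 ± 0.11. A second identifier of the same name overlaps Snora43 and had no read.

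The remaining H/ACA members were low. Snora7a, Snora31, Snora23 and Snora24 were called lower, with log2 changes of -0.97, -0.82, -0.81 and -0.66. The other 14 tested H/ACA members were not called, at log2 changes of -0.84 (Snora21) to 0.29 (Snora16a). Snora33 lay at 1.42 to 3.03 CPM in wt and Rspo2KO and at 1.22 to 3.45 CPM in the others, at 0.09 ± 0.26, and its sign turned when wt 2 or the library labelled Wnt9bKO 2 was left out.

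The ratio of the H/ACA sum to the C/D sum was 1.86 to 2.27 in the wt and Rspo2KO libraries and 1.32 to 1.62 in the Wnt9bKO and DKO libraries, without overlap. One member carried that separation. Without Snora74a the ratio was 1.30 to 1.61 and 1.25 to 1.51, and the sets overlapped. The shares of tested members called lower, 36.4% for H/ACA and 42.9% for C/D, were given no test, since members are not replicates.

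**Figure D3:**
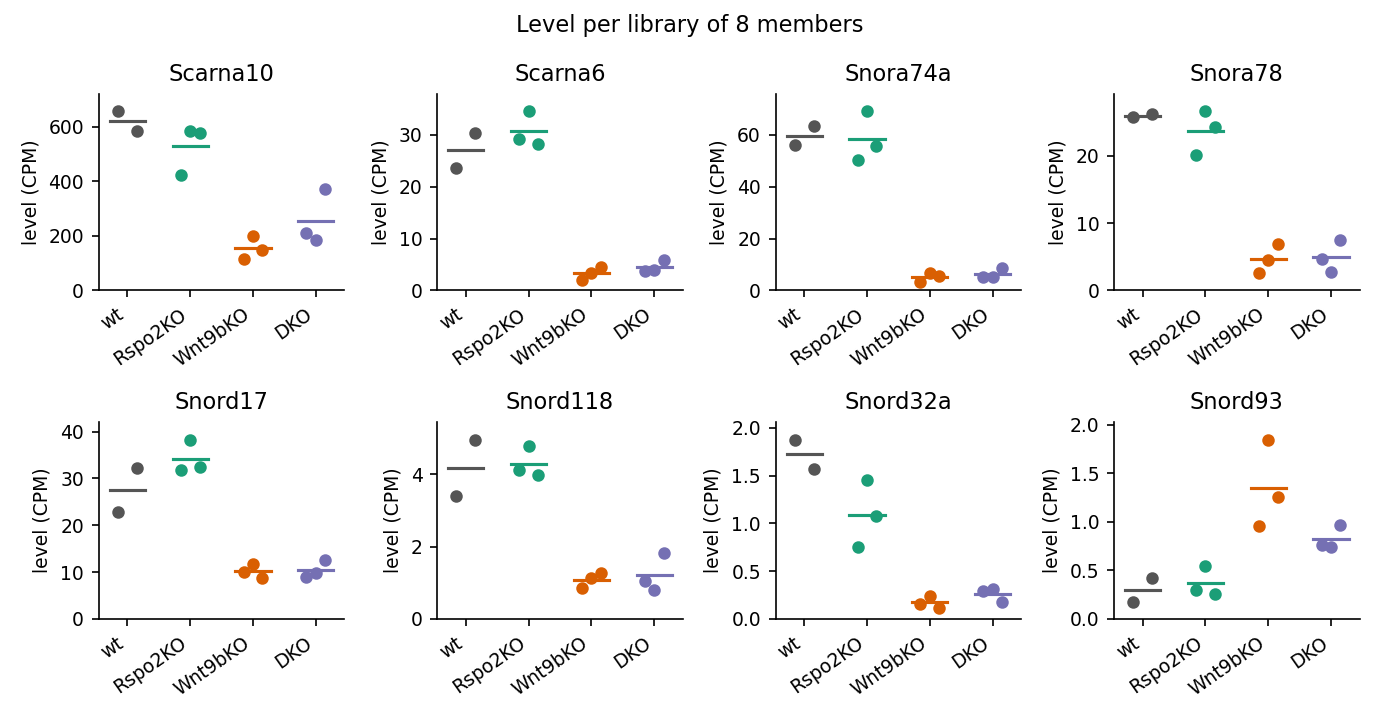
Level (CPM, y axes from 0) of 8 members in each library, by genotype on the x axis; points are libraries and horizontal lines are genotype means. Scarna10, Scarna6, Snora74a, Snora78, Snord17, Snord118 and Snord32a lie lower in every Wnt9bKO and DKO library than in any wt or Rspo2KO library, and Snord93 lies higher.

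Snord17, at 238 bases the longest C/D member, was the only C/D member with a mean over 10 CPM. It was at 22.8 and 32.2 CPM in wt and at 31.9, 38.2 and 32.5 CPM in Rspo2KO. It was at 10.1, 11.8 and 8.81 CPM in Wnt9bKO and at 9.04, 9.89 and 12.6 CPM in DKO, a log2 change of -1.57 ± 0.12. Snord104 followed at 9.46 to 12.7 CPM against 3.95 to 6.45 CPM, a log2 change of -0.99 ± 0.12.

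Several C/D snoRNAs act in the cleavage of the ribosomal RNA precursor or in 18S rRNA maturation rather than as plain methylation guides. Snord118, or U8, is needed for the maturation of 5.8S and 28S rRNA and has its own promoter. It was at 3.39 and 4.95 CPM in wt, at 4.11, 4.79 and 3.98 CPM in Rspo2KO, at 0.85, 1.13 and 1.26 CPM in Wnt9bKO and at 1.06, 0.81 and 1.82 CPM in DKO. That is a log2 change of -1.88 ± 0.21, with no overlap.

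Snord13, or U13, also has its own promoter and pairs with 18S rRNA. Its counts were 8 and 22 in wt, 12, 26 and 14 in Rspo2KO, 2, 2 and 0 in Wnt9bKO and 9, 6 and 6 in DKO. The 3 Wnt9bKO libraries were below the floor of 3 counts, so no fold is given for them. Of the U14 snoRNAs, which act in 18S rRNA processing, Snord14a was at 0.67 to 1.01 CPM against 0.36 to 0.64 CPM, called lower with all libraries but past the adjusted p in only 6 of 18 alternatives. Snord14c, Snord14d and Snord14e, in introns of Hspa8, had no read. The Snord15 family is listed beside these snoRNAs without a claim that it acts in processing. Snord15a was at 1.27 to 1.39 CPM against 0.48 to 1.02 CPM, a log2 change of -0.97 ± 0.23, and Snord15b had no read. Snora73a and Snora73b, the U17 snoRNAs of the H/ACA family in Rcc1, had none either.

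Snord32a and Snord93 were singled out after their values were seen. Snord32a had 21 and 26 counts in wt, 10, 24 and 17 in Rspo2KO, 3, 4 and 2 in Wnt9bKO and 5, 5 and 3 in DKO, and 3 of its 6 Wnt9bKO and DKO libraries were at or below the floor. Its fitted log2 change of -2.65 ± 0.29 therefore does not measure the size of the difference closely. Snord93 had 2 and 7 counts in wt, 4, 9 and 4 in Rspo2KO, 18, 31 and 21 in Wnt9bKO and 13, 12 and 16 in DKO. It was the 1 member called higher, at a fitted 1.59 ± 0.33, which also rests on few reads, with wt 1 below the floor.

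With a mean of 1 CPM as a minimum, no member was called higher. The largest values above 0 were those of Snord55, at 0.50 ± 0.24, Snora16a, at 0.29 ± 0.25, and Snord111, at 0.21 ± 0.19, and the libraries of all 3 overlapped between the sets. With 1 library left out, Snora16a ranged from 0.16 (without Wnt9bKO 2) to 0.42, and it was 0.18 without Rspo2KO 1 and 0.19 without DKO 2. Snord55 was called higher in Wnt9bKO against Rspo2KO, at 0.95, as was Snord93, at 1.84.

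A pair of imprinted snoRNAs of the region on chromosome 7 that in humans is linked to Prader-Willi syndrome had unlike values, and the difference between them was not tested. Snord107 was at 0.80 to 2.23 CPM against 0.32 to 1.01 CPM, a log2 change of -1.29 ± 0.29, and without wt 2 it was -0.81 and not called. Snord64 was at 0.97 to 1.58 CPM against 0.74 to 1.62 CPM, at 0.05 ± 0.23. The sign for Snord64 turned in 4 alternatives, without wt 2, Rspo2KO 1 or Wnt9bKO 2 and without both doubtful libraries. The annotation places both within Gm38393, at -1.07. The 17 Snord116 copies of the same region had 2 reads in all libraries together, and 14 of them share 1 sequence of 94 bases, so a read from them has no unique place.

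The median change and the share called lower differed with level and with length, while large single changes also occurred in members of lower level, as in Scarna3a. All 10 tested members with a mean of at least 5 CPM were called lower, with a median log2 change of -1.58. Over all genes, of any level and length, 7.37% were called lower and 17.4% in either direction. Of 34 members between 1 and 5 CPM, 15 were called lower (median -0.55), and of 27 below 1 CPM, 7 were called lower and 1 higher (median -0.24). By annotated length, 7 of 7 tested members of 150 bases or longer were called lower (median -1.57), 11 of 25 from 100 to below 150 bases (median -0.55) and 14 of 39 below 100 bases (median -0.38). The median SE grew from 0.14 at 5 CPM or more to 0.32 below 1 CPM, so a like change is called less readily in a low member. Across the 71 tested members, Spearman's rho with the log2 change was -0.43 for the mean level and -0.27 for the length, where long members were also abundant and all points come from the same libraries. These bins were drawn after the data were seen.

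**Figure D4:**
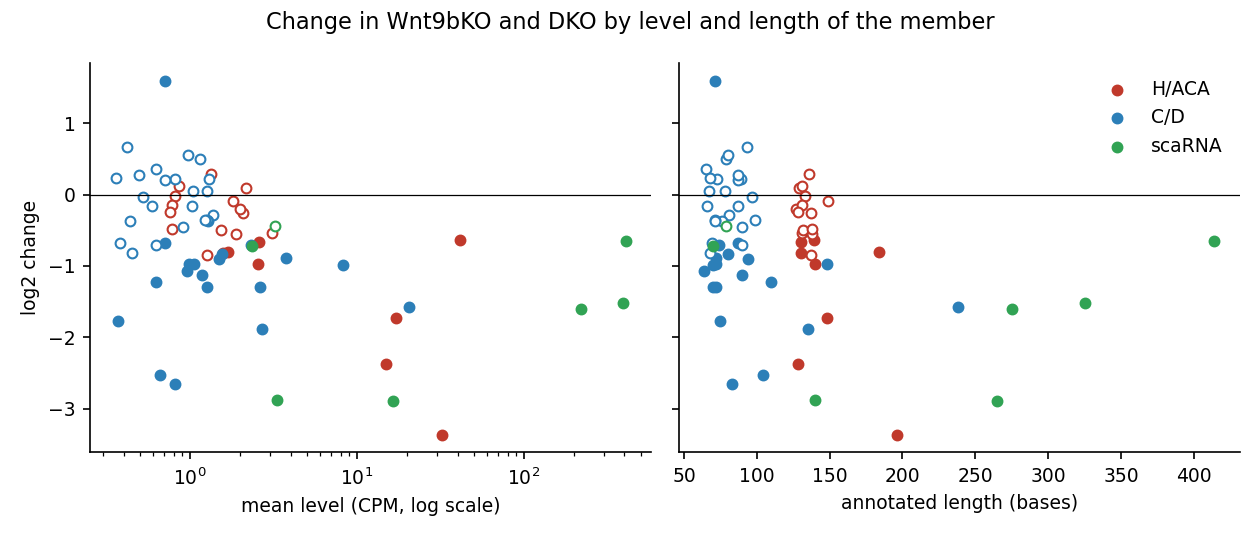
Log2 change in Wnt9bKO and DKO against wt and Rspo2KO (y axis) of the 71 tested members by mean level (left, CPM on a log axis) and by annotated length (right, bases); colours are families and filled points are called. All members at 5 CPM or more and all of 150 bases or longer are filled and lie below 0.

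The annotation places 138 members within 90 other genes on the same strand, 68 of them protein-coding, and 9 members in none. Of 84 host genes tested, 16 were called lower and 4 higher, with a median log2 change of -0.15, where 7.37% of all genes were called lower and 17.4% in either direction. Among 25 tested ribosomal protein hosts, 22 lay below 0 and 8 were called lower. Of all 79 ribosomal protein genes tested, 39 were called lower, so the count of 8 is not read as a trait of hosts. In 61 pairs of a tested member and a tested host, over 52 hosts, the member's change lay below that of its host in 43 pairs, with a median difference of -0.22, and Spearman's rho between them was 0.28. The members were chosen by their lower levels in this contrast and the hosts were not, so the lower values of the members in these pairs are a description that the choice itself favours. Of 23 members called lower in such pairs, the host was called lower for 9, not called for 14 and higher for 0. Of the 7 tested members without a host, 6 were called lower, with a median of -0.99, and of the 64 with one, 26 (median -0.52).

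Examples ran in several directions. Atg16l1, an autophagy gene that holds Scarna6, was at 45.4 to 61.2 CPM in wt and Rspo2KO and at 52.9 to 66.0 CPM in the others, a log2 change of 0.10 against -2.89 for Scarna6. Snx5, a sorting nexin that holds Snord17, was at 0.36 against -1.57, and Cop1, a ubiquitin ligase that holds Scarna3a, at -0.32 against -2.88. Ncapd2, a condensin subunit that holds Scarna10, was called lower at -0.63 against -1.52. The noncoding Snhg9 was lower, at -1.63, with its Snora78 at -2.37. Tpt1 fell by 1.92 on the log2 scale, more than its Snora31, at -0.82. Snhg12 was called higher at 1.0 with Snora16a at 0.29, and 2700038G22Rik was called higher at 0.62 with Snord93 at 1.59.

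Members of 1 host also differed from each other. In Rpl13a, at -0.46, Snord32a was at -2.65 and Snord35a at -1.13, and Snord33 and Snord34 had no read. In 2410006H16Rik, at -0.73, Snord49a was at -0.89, Snord49b at -1.29 and Snord65 at -0.97. In Rps12, at -0.70, Snord100 was at -0.70 and Snora33 at 0.09, and in Rabggtb, at 0.11, Snord45b was at -0.35 and Snord45c at 0.56. None of these differences within a host was tested.

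**Figure D5:**
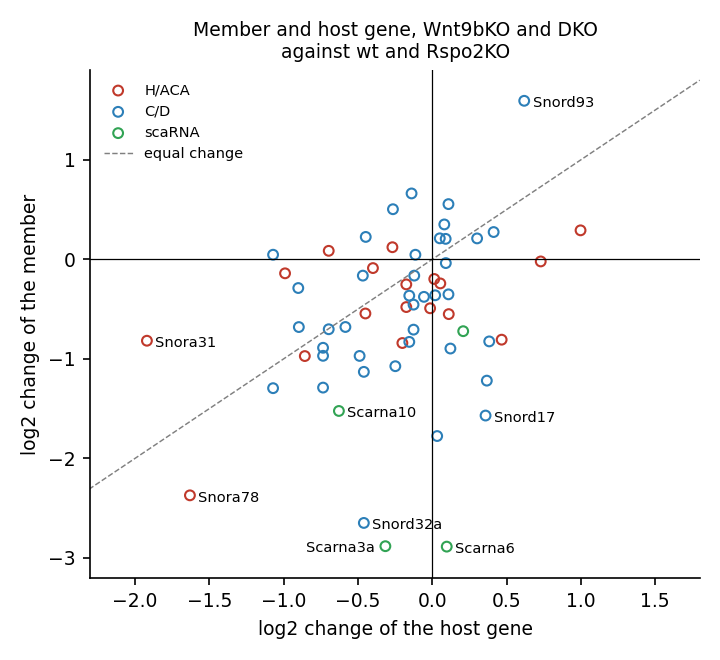
Log2 change of the member (y axis) against that of its host gene (x axis) in Wnt9bKO and DKO against wt and Rspo2KO, for 61 pairs; colours are families and the dashed line marks equal change. In 43 pairs the member lies below the line, and Scarna6, Scarna3a, Snord32a and Snord17 lie farthest below it among those named.

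Of 31 genes for particle, assembly, Cajal body and processing proteins, 3 were called lower and 3 higher, with a median log2 change of -0.11. The share called was near the 17.4% of all genes called in either direction, so the count is not a result about these proteins. Of the H/ACA core proteins, Nop10 was lower (-1.03, 70.1 to 102.7 CPM against 26.6 to 57.6) and so was Nhp2 (-0.76), while Dkc1, the pseudouridine synthase, was at 0.08 and Gar1 at 0.30. Of the C/D core, Fbl, the methyltransferase, was at -0.23, Nop56 at 0.38, Nop58 at 0.09 and Snu13 at -0.48, and none was called. The helicase subunit Ruvbl2 was called lower at -0.63. Called higher were Znhit6, a C/D assembly factor (0.80), Nolc1, a nucleolar and coiled-body phosphoprotein (0.83), and Tent4b, a noncanonical poly(A) polymerase (0.84). Coil, the coilin of Cajal bodies, was at -0.27.

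Other short or unpolyadenylated RNAs differed between the same sets of libraries. How RNA was selected for the libraries, and in which batches they were made, is not given in the sources used here, so genotype and library preparation cannot be told apart in any difference between the 2 sets. Genes of the class snRNA summed to 352 to 419 CPM in wt and Rspo2KO and to 70.1 to 82.6 CPM in Wnt9bKO and DKO, while of 41 tested 18 were called lower and 3 higher, with a median log2 change of -0.18. Genes of the class misc_RNA, which holds the 7SK and signal recognition particle RNAs, summed to 7913 to 10428 CPM against 2751 to 5699.9 CPM, with 17 of 48 tested called lower and 6 higher and a median of -0.23. The medians of both classes are far smaller than the differences of their sums. Snora, Snord and Scarna genes are not the whole class, and snoRNA and scaRNA genes with other names summed to 799.9 to 952 CPM against 337 to 404 CPM, with 40 of 103 tested called lower and 4 higher. Histone cluster genes, whose main transcripts lack a poly(A) tail, summed to 14600 to 20385 CPM against 8137 to 12507 CPM, with 37 of 57 tested called lower and 1 higher. Of 79 ribosomal protein genes tested, 39 were called lower and 2 higher. Over all genes, 7.37% were called lower and 17.4% in either direction. Mitochondrial protein-coding genes summed to 22503 to 27007 CPM against 7546 to 25259.8 CPM, with 3 of 12 tested called lower and a median of -0.53. Of 5 erythroid markers, 4 were called lower, and the list summed to 3906 to 5709 CPM against 1718 to 2818 CPM, with no marker at 0. The 4 heart markers summed to 1.83 to 25.3 CPM against 0.70 to 1.33 CPM, highest in wt 1, with Tnnt2 at 0 in Wnt9bKO 2. Myl7, the 1 heart marker tested, was called lower at -2.70. Of 11 facial markers, 0 were called lower and 2 higher, Dlx5 at 1.05 and Tfap2b at 0.63 (562 to 812 CPM against 550 to 961 CPM). Of 5 neuron markers 0 were called (439 to 589 CPM against 263 to 504 CPM), and of 4 forebrain and eye markers 3 were called higher (50.8 to 68.6 CPM against 56.2 to 117 CPM). The part of these differences in the members' values was not tested.

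Within each set of libraries, members were tested with edgeR's quasi-likelihood test and Benjamini-Hochberg adjustment over all genes. In both comparisons Xist and Ddx3y separate the genotypes, so genotype and sex cannot be told apart. In Rspo2KO against wt, 0 of 71 members were called, where 0.0346% of all genes were. An unadjusted p below 0.05 was reached by 2 members (2.82%) and by 11.9% of all genes. DESeq2, run without the low-count filter on 89 members, called 0, with 0 at an unadjusted p below 0.05. The 2 in edgeR were Snora20, at -1.11 ± 0.40 (adjusted p = 0.293), and Snord58b, at -1.17 ± 0.43 (adjusted p = 0.298). Snora20 was at 1.43 and 0.91 CPM in wt and at 0.37 to 0.69 CPM in Rspo2KO, on 5 to 16 counts per library.

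In DKO against Wnt9bKO, 0 of 71 members were called, where 0.121% of all genes were. An unadjusted p below 0.05 was reached by 5 members (7.04%) and by 5.63% of all genes. DESeq2, run without that filter on 89 members, called 0, with 4 at an unadjusted p below 0.05. Its share over all genes is not given here. The lowest edgeR p-value belonged to Snord13 (adjusted p = 0.393), whose Wnt9bKO libraries were all below the floor. Scarna10 was higher in DKO by 0.73 ± 0.23 on the log2 scale (adjusted p = 0.494 in edgeR), with the lowest DKO library, at 187 CPM, below the highest Wnt9bKO library, at 199 CPM. Without the low-count filter it was called in edgeR, at 0.73 (adjusted p = 4.12e-05), as 1 of 89 members tested. The log2 change was 0.73 in both fits, so the p-value depends on which genes enter the fit. The share of all genes called without the filter is not given here, and 20 of 21 alternatives called 0 members. Snord104, Snora20 and Snord89 followed, at 0.40, -0.85 and 1.27. The test of the interaction, the change from Wnt9bKO to DKO less the change from wt to Rspo2KO, gave 0 members at an adjusted p below 0.05, where 0.0635% of all genes reached it, and 3 at an unadjusted p below 0.05, where 9.44% of all genes did. Those 3 were Scarna10, Snord13 and Snord89.

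Summed levels within the sets were compared by exact two-sided permutation tests over libraries, 6 in all, of which the smallest possible p is 0.2 for 2 against 3 libraries and 0.1 for 3 against 3, so none could reach 0.05. Rspo2KO over wt gave a log2 ratio of -0.10 for H/ACA (exact p = 0.6), 0.05 for C/D (exact p = 0.8) and -0.15 for scaRNA members (exact p = 0.4). DKO over Wnt9bKO gave -0.06 for H/ACA (exact p = 0.9), -0.02 for C/D (exact p = 1.0) and 0.38 for scaRNA members (exact p = 0.1, adjusted over the 6 tests 0.6). For scaRNAs the 3 DKO libraries all lay above the 3 Wnt9bKO libraries, and the log2 ratio was 0.25 without the libraries labelled Wnt9bKO 2 and DKO 3 and 0.21 without DKO 3 alone. Without Rspo2KO 1, the ratio of Rspo2KO over wt was -0.019 for H/ACA and -0.021 for scaRNA members, and without Rspo2KO 2 it was -0.22 and -0.23.

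Many of the 58 members without a read lie over exons of other genes. Exons of other genes, on either strand, cover 59 members wholly, and 40 of these had no count, while 0 of 15 partly covered members and 18 of 73 uncovered members had none. Of those 18, 15 are Snord116 copies. Snord47, Snord78 and Snord80 in Gas5, a noncoding host at 256 to 327 CPM in wt and Rspo2KO, had 0 reads. HTSeq can set aside reads that fall in more than 1 gene, and whether that or a low level left these members at 0 was not tested. The annotation release and the strand setting are not given in the sources used here.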

How the data were processed

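RNA sequencing of 11 libraries was analysed. By the study's methods, the authors trimmed single-end 50 bp reads with Cutadapt, discarded reads shorter than 30 bp, mapped the rest to GRCm38 with STAR and counted them per gene with HTSeq. The deposited counts are whole numbers per Ensembl gene, not normalized, and hold no rows without a gene. Reads with more than 1 place in the genome, overlaps between genes and trimming can each lower the counts of short RNAs. Total counts were 11136166 to 18017344 per library, and floors cover counting error only.

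Names, positions and sequences came from GENCODE M21 (36723 of 38561 genes matched by identifier). Members, lists, bins and tests were chosen with earlier results of these data known. Groups came from the labels. With R 4.3.3 and edgeR 4.0.16, genes were filtered by filterByExpr, scaled by TMM and fitted with a mean per genotype over all 11 libraries in a quasi-likelihood model, with Benjamini-Hochberg adjustment over 17317 genes. A gene was called at an adjusted p below 0.05 and over 1.5-fold. The SE of a log2 change was derived from the test, as its absolute value divided by the square root of the quasi-likelihood F. The contrast Wnt9bKO and DKO against wt and Rspo2KO is the mean of 2 genotype means against the mean of the other 2. DESeq2, the tool named by the study, was an alternative, here in version 1.42.0. Other alternatives were upper-quartile and RLE factors, autosomal scaling, low-count filters, the replicate number as a block, subsets of genotypes, leaving out libraries, and the annotated class in place of the symbol. The fit was tested on simulated data.

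Named members were the 15 most abundant, the 5 largest falls and rises at 1 CPM or more, and those called within a set. Also named were independently transcribed or processing members, the Snord14 and Snord15 families, the imprinted snoRNAs, and hosts. Another 2 members and the pairs of 1 host were chosen after their values were seen. Permutation tests and figures used scipy 1.17.1 and matplotlib 3.10.9 under Python 3.11.15 (pandas 2.3.3, numpy 2.4.6).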

Additional observations from a re-analysis of the deposited data

Results flagged for a closer look

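In 46 groups of 5 or 6 libraries, 5 values stood apart from the rest by more than Dixon's 95% limit. In independent groups from 1 normal distribution, chance gives such a value in about 1 in 20. These groups share libraries, each pools 2 genotypes, and the scaRNA sum holds Scarna2, so the 5 values are not weighed against that rate. Among the wt and Rspo2KO libraries, Rspo2KO 1 was low for the scaRNA sum, at 1108 CPM, for Scarna2, at 371 CPM, and for Snora16a, at 0.673 CPM. In the same set, wt 1 was low for Scarna3a, at 3.93 CPM. Among the Wnt9bKO and DKO libraries, the library labelled Wnt9bKO 2 was high for Snora43, at 43.3 CPM, just below the lowest wt or Rspo2KO library, at 43.5 CPM. The cause of these values was not tested.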

How the results depend on the processing

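The counts of members called moved by over 1.5 times in a few alternatives. The shares of all genes called in the alternatives are not given here. A move of the members and a move in the calling of all genes therefore cannot be told apart. In Wnt9bKO and DKO against wt and Rspo2KO, 33 members called became 21 with at least 10 counts in every library, where 36 members were left to test, and 77 with all 174 tested genes of the class snoRNA or scaRNA. The wider class gave 59 in Wnt9bKO and 60 in DKO against wt. In DKO against Wnt9bKO, 1 member of 89 tested, Scarna10, was called by edgeR without the low-count filter, at 0.73 (adjusted p = 4.12e-05). In that comparison 20 of 21 alternatives called 0 members. DESeq2 called 32 of 89 members in the first contrast, all among the 33. Without the libraries labelled Wnt9bKO 2 and DKO 3 it was 37, sharing 32. Leaving out 1 library at a time gave 27 to 35 in that contrast, 16 to 28 in Wnt9bKO against wt and 13 to 27 in DKO against wt, with the lowest counts, 16 and 13, without wt 2, and 0 to 0 in Rspo2KO against wt and in DKO against Wnt9bKO. With the replicate block, counts were 32, 25 and 24 in the first 3, and 0 in the other 2. The labels give the numbers no shared source, and 3 of 15 same-numbered pairs had a correlation above 0.1, so the numbers were not taken to pair the libraries. Among the 3 mutant genotypes, 9 of 9 same-numbered pairs had a correlation above 0 and 15 of 18 others one below 0, which is a hint from the data, not from the design.

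The C/D median of -0.57 became -0.42 with DESeq2, -0.42 without the filter and -0.73 without the libraries labelled Wnt9bKO 2 and DKO 3, and was -0.71 to -0.42 with 1 library left out. The H/ACA median was -0.58 to -0.37 with 1 library left out. Sums within the sets changed sign in a few alternatives. H/ACA in DKO against Wnt9bKO became 0.028 without its most abundant member and 0.035 without both doubtful libraries, and was -0.22 to 0.12 with 1 library left out. C/D in the same comparison became 0.085 without both, and was -0.10 to 0.14 with 1 left out. C/D in Rspo2KO against wt became -0.079 without its most abundant member, and was -0.092 to 0.20 with 1 left out. The sums of scaRNAs, tried after seeing the data, were 0.21 to 0.50 in DKO against Wnt9bKO and -0.23 to -0.021 in Rspo2KO against wt with 1 left out. Of 486 values of 26 named members, 452 kept direction and side of an adjusted p of 0.05 (Scarna2 and Snora43 fell under 1.5-fold in some), 27 no longer passed it, in Snord14a, Scarna17, Snora68 and Snord107, and 7 reversed. The reversed ones were Snora33, at -0.19 without both doubtful libraries, -0.12 to 0.24 with 1 left out, and Snord64, at -0.036 and -0.078 to 0.17. Depth limits members below 1 CPM, with a median SE of 0.32. The causes were not tested.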
